A study of Mus musculus with 6 samples.

Results

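The genes examined here are all protein-coding rows of the count table whose symbols name an integrin alpha or beta subunit or a laminin chain, 37 of the 57010 genes in the table. They were split into 8 leukocyte integrins, 18 matrix receptors and 11 laminins, and 34 of the 37 held at least 10 counts in 3 or more libraries. The same 34 passed edgeR's filter on low counts. Integrins are receptors made of an alpha and a beta subunit that span the cell membrane. They hold cells to the surrounding matrix or to other cells and pass signals in both directions. Laminins are trimers of an alpha, a beta and a gamma chain, and they form the sheet-like core of basement membranes, which surround each cardiomyocyte and line every vessel. In the heart, the integrin beta subunit encoded by Itgb1 pairs with several alpha subunits to tie the contractile apparatus to laminin, collagen and fibronectin. Leukocyte integrins carry immune cells across the vessel wall, and their main ligands are adhesion molecules on other cells.

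The libraries came from primary neonatal mouse cardiomyocytes (NMCMs) of C57BL/6 pups. The cells were separated from cardiac fibroblasts by differential adhesion and kept under hypoxia (HO). One group of 3 libraries received vehicle (HO + Vehicle, V1 to V3) and the other β-sitosterol, a plant sterol (HO + β-SITO, T4 to T6). Hypoxia was common to both groups. The comparison asks how β-SITO changes the transcriptome of hypoxic NMCMs. Neither the dose of β-SITO in these libraries nor whether the replicates were separate cultures is given in the sources used here, so p-values measure only the spread between these samples. In the count table the columns of the HO + β-SITO libraries alone end in the letter C, which the sources used here do not explain, so whatever it marks and the treatment cannot be told apart.

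Totals were 16694734 to 18460522 counts per library. Levels are given as CPM, counts scaled to a common library total after TMM normalization, which corrects for differences in library make-up. Cardiomyocyte markers were present, with a summed level of 6546 to 7541 CPM in the HO + Vehicle libraries and 6039 in T4, 10268 in T5 and 10471 in T6. T4 therefore stood apart from T5 and T6, and values without it are given where they matter. The 9 fibroblast markers, 3 of them collagen genes that are very abundant where they are expressed, summed to 30022 to 31267 CPM with vehicle and 45022 to 46148 CPM with β-SITO. The cultures thus held transcripts of cells other than cardiomyocytes. In such bulk libraries a change in the number of cells of one type and a change in the RNA of each cell cannot be told apart.

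Of the 34 genes tested, 8 rose and 6 fell by more than 2-fold with β-SITO at an adjusted p under 0.05. These are the differentially expressed genes (DEGs). The share of DEGs was 41.2%, against 22.8% of the 14799 genes tested in all, 12.8% higher and 10.1% lower. The adjusted p is that of edgeR's quasi-likelihood test, adjusted by Benjamini-Hochberg over all genes tested. Another 14 members passed the adjusted p without reaching 2-fold, 11 of them with higher and 3 with lower levels after β-SITO, and 6 did not pass. Without the fold threshold, 66.8% of all genes tested passed. Libraries of one group lay entirely above those of the other for 26 members, as they did for 70.5% of all genes tested. The median log2 fold change of the 34 members was 0.30, against -0.01 for all genes tested, and their median absolute log2 fold change was 0.83 against 0.44.

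**Figure D1:**
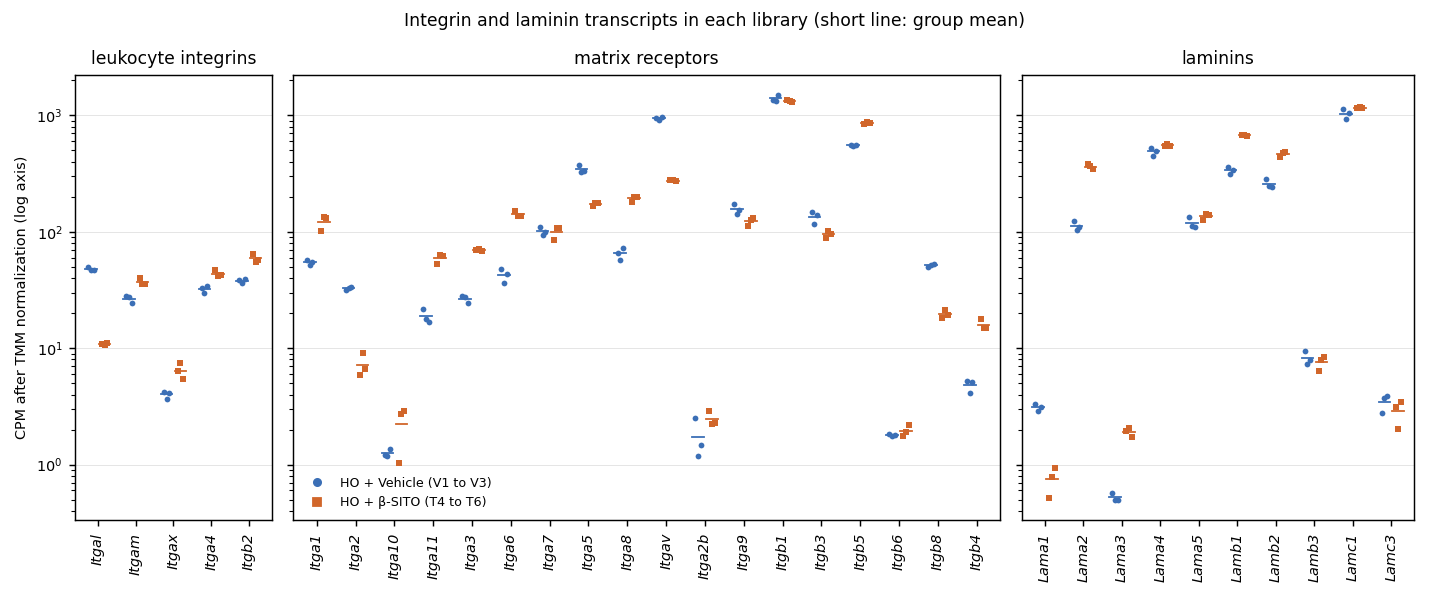
Level of the members described in the text in each library, in CPM after TMM normalization on a log axis, with circles for HO + Vehicle, squares for HO + β-SITO and a short line for each group mean. Itgb1 and Lamc1 lie among the highest in both groups, while Itgav, Itga2, Itgal and Lama1 lie well below their HO + Vehicle values in every HO + β-SITO library.

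**Figure D2:**
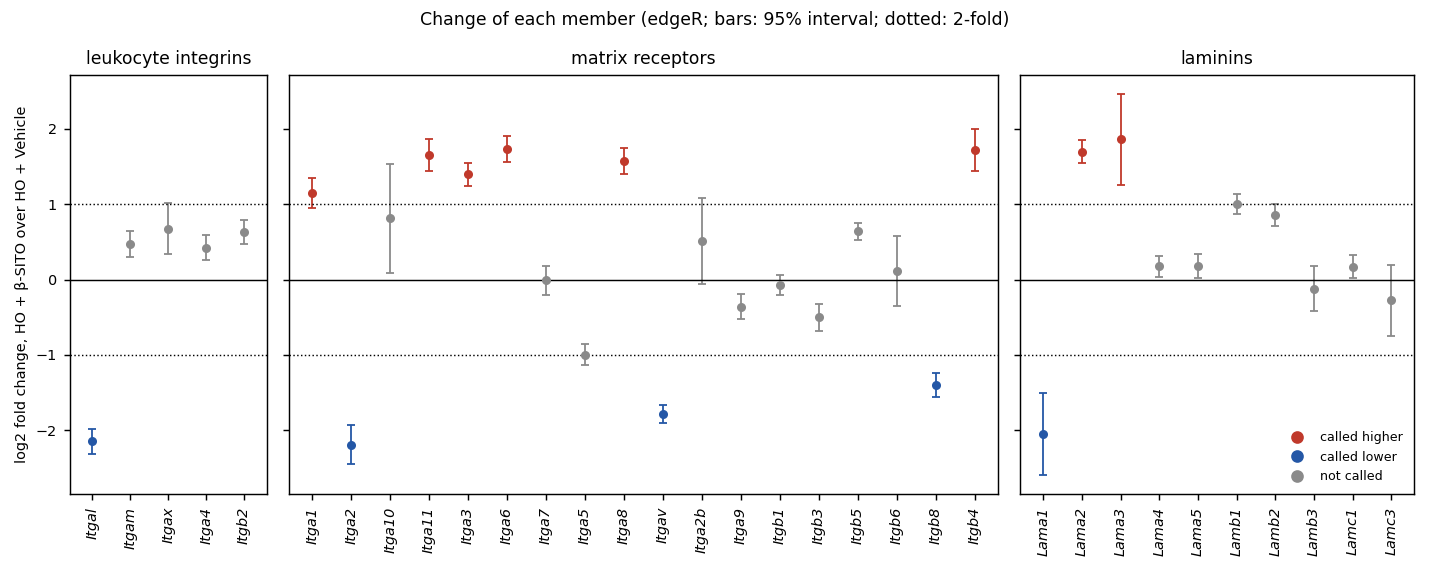
Log2 fold change of the members described in the text (HO + β-SITO over HO + Vehicle) with its 95% interval, in red for DEGs higher, blue for DEGs lower and grey for the others. The dotted lines mark a 2-fold change, and the changes run from -2.19 for Itga2 to 1.86 for Lama3.

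The alpha subunits that bind RGD, the short peptide of fibronectin and vitronectin, moved in opposite directions. Itgav, whose product pairs with several beta subunits and also releases latent TGF-β, fell. Its levels were 947.2, 919.1 and 974.9 CPM in V1 to V3 and 277.4, 276.0 and 271.6 CPM in T4 to T6. All HO + Vehicle libraries were thus more than 3 times above all HO + β-SITO libraries, and the log2 fold change was -1.78 ± 0.06 (SE, adjusted p = 3.54e-13). Itga8, whose product binds nephronectin and is known from mesenchymal cells, rose. It held 65.6, 57.4 and 72.9 CPM in V1 to V3 and 180.4, 200.3 and 200.6 CPM in T4 to T6, so that every HO + β-SITO library was above every HO + Vehicle library. The log2 fold change was 1.57 ± 0.08 (SE, adjusted p = 1.03e-10). Itga5, which encodes the alpha subunit of the classical fibronectin receptor, had 344.3 ± 24.5 CPM with vehicle and 172.7 ± 5.88 CPM with β-SITO (SD, n = 3). The groups did not overlap, but the change of -0.9955 on the log2 scale (adjusted p = 1.71e-09) stopped just short of 2-fold, and without V2 it was a DEG with -1.03. Itga2b, the alpha subunit of the platelet fibrinogen receptor, was low throughout, between 1.19 and 2.53 CPM with vehicle and between 2.25 and 2.88 CPM with β-SITO, with overlapping libraries (adjusted p = 0.101). Of 7 platelet markers, 3 were tested and all 3 were DEGs higher (100%, against 22.8% over all genes tested). The list summed to 18.3 to 24.6 CPM with vehicle and 45.0 to 55.7 CPM with β-SITO. Nearly all of it came from Pf4, which macrophages can also express.

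The upstream sequences of Itgav and Itga8 are shown because these genes sit at opposite ends among the RGD-binding subunits, and those of Itga2 and Itga1 because they are neighbours on chromosome 13 that moved in opposite directions. Each is the 250 bases before the RefSeq transcription start, written 5′ to 3′ on the strand of the gene, from the build GRCm38.p6. The last bases of each RefSeq promoter entry were sought in annotated transcripts of the gene. They were found for Itgav, Itga2 and Itga1 but not for Itga8, so the start used for Itga8 is less certain. Capitals mark matches to GAGGAA or its complement TTCCTC, a purine-rich element that PU.1 can bind.
Itgav, chr2:83724147-83724396, plus strand: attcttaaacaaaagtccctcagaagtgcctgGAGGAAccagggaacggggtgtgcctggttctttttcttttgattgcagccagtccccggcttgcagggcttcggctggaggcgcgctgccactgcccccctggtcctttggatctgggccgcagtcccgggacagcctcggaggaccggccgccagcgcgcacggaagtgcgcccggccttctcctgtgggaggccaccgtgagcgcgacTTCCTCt
Itga8, chr2:12301945-12302194, minus strand: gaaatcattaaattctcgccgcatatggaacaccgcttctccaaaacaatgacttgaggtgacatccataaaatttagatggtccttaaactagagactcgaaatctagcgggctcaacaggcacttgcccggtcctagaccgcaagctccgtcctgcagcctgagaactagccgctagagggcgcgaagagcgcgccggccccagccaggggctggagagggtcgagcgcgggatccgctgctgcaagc
Itga2, chr13:114932101-114932350, minus strand: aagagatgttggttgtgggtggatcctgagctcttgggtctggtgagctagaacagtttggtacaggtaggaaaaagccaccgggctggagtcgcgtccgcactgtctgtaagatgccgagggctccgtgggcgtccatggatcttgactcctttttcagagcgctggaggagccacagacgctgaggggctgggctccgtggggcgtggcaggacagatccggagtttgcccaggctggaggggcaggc
Itga1, chr13:115101965-115102214, minus strand: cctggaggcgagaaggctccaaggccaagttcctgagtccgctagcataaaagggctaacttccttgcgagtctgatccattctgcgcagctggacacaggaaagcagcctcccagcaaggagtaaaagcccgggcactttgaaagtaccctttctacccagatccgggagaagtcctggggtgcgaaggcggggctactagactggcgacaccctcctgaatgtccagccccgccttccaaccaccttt

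Itgav held 2 matches to GAGGAA and the other three held none. RefSeq promoters were given for 23 of the 37 members, with 26 entries, and 13 of these entries (50%) held the motif on either strand, against 23.3% of all 32851 promoters. The interferon regulatory factor element (GAAA, any 2 bases, GAAA) was found in 2 of the 26 entries (7.69%) and in 2.98% of all promoters, the NF-κB element (GGGA, any single base, TTTCC) in 0 of 26 and in 0.356% of all, and the GC box GGGCGG in 9 of 26 (34.6%) and in 32.7% of all. Both strands were searched, and matches to different motifs could overlap. None of the 4 sequences shown held any of the last 3 motifs. The G and C content of the 4 sequences was 64.4% for Itgav, 56.4% for Itga8, 60.8% for Itga2 and 57.6% for Itga1, against a median of 52.4% over all promoters. These matches describe the letters in these windows and were not tested as binding sites.

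Among the collagen-binding alpha subunits, Itga2 fell while Itga1 and Itga11 rose. Itga2, a receptor best known from platelets and epithelial cells, held 31.5, 33.0 and 33.7 CPM in V1 to V3 and 5.86, 9.05 and 6.66 CPM in T4 to T6. The HO + Vehicle libraries were all above 30 CPM and the HO + β-SITO libraries all below 10, and the log2 fold change of -2.19 ± 0.12 (SE, adjusted p = 2.58e-10) was the lowest among the 34 members. Itga1, which binds the network-forming collagen of basement membranes, had 57.3, 51.4 and 55.5 CPM in V1 to V3 against 100.7, 133.3 and 130.9 CPM in T4 to T6. T4 was the lowest of its group but still above every HO + Vehicle library. The log2 fold change was 1.15 ± 0.09 (SE, adjusted p = 2.80e-08), and glmTreat, a test of whether a change exceeds 2-fold, did not call the gene. Itga11, the fibrillar collagen receptor of fibroblasts, held 21.8, 17.9 and 16.9 CPM against 52.7, 63.5 and 62.0 CPM, with a log2 fold change of 1.65 ± 0.10 (SE, adjusted p = 7.22e-10). The fibroblast markers listed above were 1.49-fold higher in their sum, which Col1a1, Col1a2 and Col3a1 make up for the most part. Only 1 of these 9 markers was a DEG (Dpt, higher), 11.1% against 22.8% over all genes tested. Another 5 passed the adjusted p with higher levels without reaching 2-fold, 2 passed with lower levels, and 1 did not pass. On average with vehicle and β-SITO, Lum had 245.8 and 482.1 CPM and Tcf21 173.4 and 281.1 CPM. Dcn had 1907 and 1332 CPM, Postn 1152 and 990.0 CPM and Pdgfra 646.2 and 707.6 CPM. The part of the fibroblast markers in the Itga11 result was not tested. Itga10, a cartilage collagen receptor, had 1.20, 1.19 and 1.36 CPM in V1 to V3 and 1.03, 2.70 and 2.92 CPM in T4 to T6. T4 lay below all HO + Vehicle libraries here, and Itga10 was a DEG only when T4 was left out (log2 fold change 1.16, against 0.81 with all libraries).

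In the deposited table, which uses the build GRCm39 according to the submitters' processing notes, Itga2 lies at chr13:114969617-115068636 and Itga1 at chr13:115089632-115238500, both on the minus strand. They are 21.0 kb apart with no protein-coding gene between them. The leukocyte genes Itgal (chr7:126895432-126934310), Itgam (chr7:127661812-127717663) and Itgax (chr7:127728719-127749829) share chromosome 7 and the plus strand. Between Itgal and Itgam lie 727.5 kb and 38 protein-coding genes, between Itgam and Itgax 11.1 kb and none. The adjacent pair had log2 fold changes of 0.47 and 0.68, and the distant Itgal had -2.14.

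Of the 3 laminin-binding alpha subunits, Itga6 and Itga3 rose and Itga7 did not pass. Itga6, which pairs with the products of Itgb1 or Itgb4 and is abundant on endothelial and epithelial cells, held 47.7, 36.6 and 43.1 CPM in V1 to V3 and 150.4, 137.2 and 136.0 CPM in T4 to T6. The groups were far apart, with a log2 fold change of 1.73 ± 0.08 (SE, adjusted p = 5.11e-11). Itga3, a receptor for laminins rich in the alpha chains of Lama3 and Lama5, had 28.1, 27.4 and 24.2 CPM against 70.2, 70.7 and 69.0 CPM, a log2 fold change of 1.40 ± 0.07 (SE, adjusted p = 9.46e-11). Itgb4, the long-tailed beta subunit of hemidesmosomes that pairs with the product of Itga6, rose from 5.18, 4.14 and 5.14 CPM to 17.9, 14.95 and 14.8 CPM (log2 fold change 1.72 ± 0.13, SE, adjusted p = 1.05e-08). These 3 genes were DEGs under all 14 alternatives that kept the 2-fold threshold. Itga7 encodes the laminin receptor of striated muscle. Its levels were 110.4, 94.0 and 98.6 CPM in V1 to V3 and 84.8, 108.1 and 107.8 CPM in T4 to T6, so the groups overlapped. The log2 fold change was -0.01, with a 95% interval from -0.20 to 0.18. T4, the library with fewer cardiomyocyte transcripts than T5 and T6, was the lowest of the 6.

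Most endothelial markers were also higher with β-SITO. Of the 10 endothelial markers, all 10 were tested and 9 were DEGs higher (90%, against 22.8% over all genes tested). Their summed level was 715.9 to 798.4 CPM with vehicle and 1271 to 1294 CPM with β-SITO. Eng, the most abundant of them, went the other way, from 535.5 ± 26.5 to 408.9 ± 20.9 CPM (SD, n = 3). Its log2 fold change was -0.39 (adjusted p = 4.89e-05). Pericyte and smooth muscle markers, 4 of 8 of which were DEGs higher (50%) and none lower, summed to 1101 to 1194 and 1895 to 2150 CPM. Epicardial and epithelial markers, with 3 DEGs higher and 1 lower among 7 tested of 8 (57.1%), summed to 67.1 to 74.7 and 94.4 to 114.3 CPM. Wt1 (7.32 and 14.9 CPM), Upk1b (9.35 and 24.5 CPM) and Krt8 (0.835 and 2.03 CPM) were higher, and Krt18 (13.8 and 4.83 CPM) was lower. Epcam, an epithelial gene, had a mean of 0 CPM with vehicle and 0.0174 CPM with β-SITO. Schwann cell markers held 2.97 to 4.27 CPM over all libraries, with no DEG among the 2 tested of 5. The part of these cell types in the integrin values was not tested.

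Among the other beta subunits of matrix receptors, Itgb8 fell and the rest did not reach 2-fold. Itgb1, the common partner of the matrix receptors and the most abundant integrin transcript per length, held 1358, 1339 and 1500 CPM in V1 to V3 and 1355, 1339 and 1296 CPM in T4 to T6. The groups overlapped, and the log2 fold change of -0.07 (95% interval -0.21 to 0.06, adjusted p = 0.318) did not pass. Itgb5, a partner of the product of Itgav on fibroblasts, endothelial cells and macrophages, had 552.1 ± 7.23 CPM with vehicle and 860.0 ± 10.6 CPM with β-SITO (SD, n = 3). The difference of 0.64 on the log2 scale (adjusted p = 5.77e-08) exceeded the replicate spread but did not reach 2-fold. Itgb3, the other abundant partner of the product of Itgav, had 147.6, 116.6 and 138.3 CPM against 87.8, 102.2 and 94.7 CPM, a log2 fold change of -0.50 (adjusted p = 6.88e-05). Itgb8, whose product also pairs with that of Itgav and takes part in TGF-β activation, fell from 49.8, 52.2 and 52.7 CPM to 18.2, 21.1 and 19.3 CPM. The libraries of the groups were clearly separate, and the log2 fold change was -1.40 ± 0.08 (SE, adjusted p = 2.07e-10). Itgb6, the epithelial TGF-β-activating subunit, was at 1.76 to 1.83 CPM and 1.75 to 2.19 CPM, with a log2 fold change of 0.12 (95% interval -0.35 to 0.58, adjusted p = 0.651). Itga9, which binds tenascin and VCAM-1 and pairs with the product of Itgb1, had 157.0 ± 16.1 CPM against 122.6 ± 10.1 CPM (SD, n = 3), giving a log2 fold change of -0.36 (adjusted p = 8.75e-04).

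Levels per length show how the make-up of the subunits differed between the groups. For this, CPM was divided by the length of all exons of the gene and each gene is given as its share of the class. Itgav and Itga5 together led the integrin alpha subunits in the HO + Vehicle group. Itgav took 35.6%, 37.9% and 38.4% in V1 to V3 and 15.3%, 14.2% and 14.1% in T4 to T6, lower in each library of the HO + β-SITO group. Itga5 took 29.5% ± 0.93 and 19.8% ± 0.04 (SD, n = 3). Itga8 took 3.74% ± 0.39 and 14.9% ± 0.37, Itga6 1.98% ± 0.17 and 8.88% ± 0.83, and Itga11 1.55% ± 0.16 and 6.54% ± 0.42. In the HO + β-SITO group Itga8 and Itgav therefore held like shares (14.5% ± 0.64 for Itgav). Among the beta subunits Itgb1 took 63.6% ± 1.39 in the HO + Vehicle group and 53.6% ± 0.66 in the HO + β-SITO group, and Itgb5 28.9% ± 1.23 and 39.8% ± 0.70 (SD, n = 3). Summed over all alpha subunits, the level per kilobase was 236.6 ± 11.2 CPM with vehicle and 176.6 ± 6.32 CPM with β-SITO, and over all beta subunits it was 539.0 ± 23.3 and 607.8 ± 7.56 CPM (SD, n = 3). These shares and sums are descriptions without a test.

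**Figure D3:**
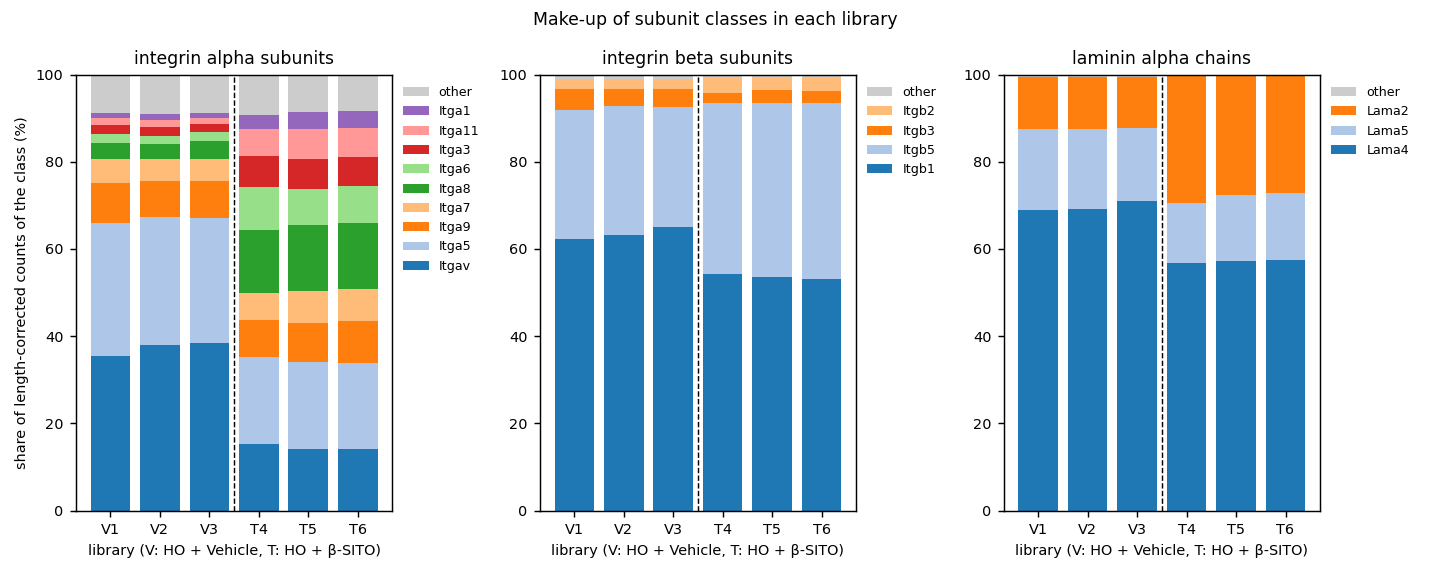
Share of length-corrected counts (%) that each gene took of all integrin alpha subunits, all integrin beta subunits and all laminin alpha chains, in each of the 6 libraries, with HO + Vehicle left and HO + β-SITO right of the dashed line. Itgav went from 37.3% to 14.5% of the alpha subunits on average, and Lama2 from 11.8% to 27.7% of the laminin alpha chains.

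Of the laminin alpha chains, Lama2 rose and Lama4 stayed the most abundant per length. Lama2 encodes the chain of muscle basement membranes whose loss causes congenital muscular dystrophy. It held 123.6, 102.6 and 109.8 CPM in V1 to V3 and 379.1, 363.6 and 347.1 CPM in T4 to T6. Each HO + β-SITO library was more than 2 times above each HO + Vehicle library, with a log2 fold change of 1.70 ± 0.07 (SE, adjusted p = 9.72e-12). Lama4, the chain of vessel and mesenchymal basement membranes, had 527.6, 446.0 and 496.7 CPM against 546.3, 563.0 and 549.5 CPM. The groups did not overlap but lay close together, and the log2 fold change was 0.17 (adjusted p = 0.0287). Lama5, common in epithelial and mature vascular basement membranes, had 119.4 ± 13.1 and 135.4 ± 7.22 CPM (SD, n = 3), with overlapping libraries and a log2 fold change of 0.18 (adjusted p = 0.0438). Lama1, the chain of the early embryo, fell from 53, 46 and 50 counts in V1 to V3 to 10, 14 and 18 counts in T4 to T6 (log2 fold change -2.05 ± 0.25, SE, adjusted p = 3.73e-06). Lama3, an epithelial chain, rose from 9, 8 and 8 counts to 38, 37 and 33 counts (log2 fold change 1.86 ± 0.28, SE, adjusted p = 3.24e-05). Both lay at or below 3.35 CPM in every library, so their intervals are wide, from -2.60 to -1.51 for Lama1 and from 1.26 to 2.47 for Lama3. Per length, Lama4 took 69.6% ± 1.17 of the alpha chains in the HO + Vehicle group and 57.1% ± 0.43 in the HO + β-SITO group, and Lama2 11.8% ± 0.16 and 27.7% ± 1.17 (SD, n = 3).

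The beta chains Lamb1 and Lamb2 sat at the edge of the 2-fold threshold. Lamb1, a part of most laminins of early tissue, held 359.7, 315.1 and 335.8 CPM in V1 to V3 and 681.8, 679.1 and 658.2 CPM in T4 to T6. The groups did not overlap, and the log2 fold change was 0.998 ± 0.06 (SE, adjusted p = 1.19e-09). It was a DEG under 11 of the 14 alternatives that kept the 2-fold threshold, among them those without V1, V3, T5 or T6, with a range from 0.96 to 1.15. Lamb2, the beta chain of mature basement membranes, the neuromuscular junction and the glomerulus, had 284.9, 247.7 and 240.3 CPM against 442.1, 470.2 and 486.0 CPM. Its log2 fold change was 0.86 ± 0.07 (SE, adjusted p = 3.37e-08), and it was a DEG with library size only replacing TMM (1.0035). Lamb3, the epithelial beta chain, was at 7.27 to 9.41 CPM and 6.37 to 8.43 CPM and did not pass (log2 fold change -0.12, 95% interval -0.42 to 0.18). Its span in the table overlaps that of Hsd11b1 on the opposite strand, which had 241.0 and 318.0 CPM on average. Whether reads were counted by strand is not given in the sources used here, so the Lamb3 counts are uncertain.

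Of the gamma chains, Lamc1 is the partner in most laminins, and it was the most abundant laminin transcript per length. It had 1123, 924.5 and 1047 CPM in V1 to V3 and 1148, 1187 and 1155 CPM in T4 to T6, a narrow gap between groups with a log2 fold change of 0.17 (adjusted p = 0.0395). Lamc3 held 36 to 66 counts in each library and did not pass (log2 fold change -0.28, 95% interval -0.75 to 0.20, adjusted p = 0.284). Summed over all laminin chains, the level was 2194 to 2607 CPM with vehicle and 3346 to 3428 CPM with β-SITO, 1.41-fold higher.

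Of the 8 leukocyte integrins, 5 were tested, and Itgal was the single DEG among them (20%, with 22.8% over all genes tested). Itgal encodes the alpha subunit of LFA-1, the receptor for ICAM molecules on most leukocytes. It held 50.2, 47.3 and 46.8 CPM in V1 to V3 and 10.8, 10.7 and 11.1 CPM in T4 to T6. The libraries agreed closely within each group, and the fall was 4.42-fold (log2 fold change -2.14 ± 0.08, SE, adjusted p = 1.40e-12). The other 4 tested genes passed the adjusted p without reaching 2-fold, and their groups did not overlap. Itgb2, the beta subunit that LFA-1 shares with the receptors of Itgam and Itgax, had 38.5, 36.0 and 39.4 CPM in V1 to V3 and 64.2, 55.0 and 57.6 CPM in T4 to T6 (log2 fold change 0.63, adjusted p = 1.85e-06). Itgam, the alpha subunit of complement receptor Mac-1, had 28.2, 27.3 and 24.4 CPM against 39.7, 35.5 and 35.3 CPM (0.47, adjusted p = 1.06e-04). For Itgax, which marks dendritic cells and many macrophages, the levels were 4.01 ± 0.32 and 6.42 ± 0.98 CPM (SD, n = 3), giving a log2 fold change of 0.68 (adjusted p = 0.00147). Itga4, whose product binds VCAM-1 and fibronectin, had 32.4 ± 2.32 and 43.5 ± 2.71 CPM (SD, n = 3), giving a log2 fold change of 0.43 (adjusted p = 1.59e-04). Itgal fell, then, while Itgb2, Itgam and Itgax had higher levels.

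Itgad, Itgae and Itgb7 were not tested. Itgad had 1 count in V3 and none elsewhere, Itgae 0 to 3 counts and Itgb7 1 to 4 counts per library. A count of 3, the limit that a count of 0 allows, came to between 0.154 and 0.190 CPM. That limit covers counting error only.

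Markers of the immune cell types went in both directions. All 12 macrophage markers were tested, of which 8 were DEGs higher and 2 lower (83.3%, against 22.8% over all genes tested). They summed to 1356 to 1489 CPM with vehicle and 2840 to 3492 CPM with β-SITO. Lyz2 (647.0 and 1408 CPM), Mrc1 (11.8 and 325.2 CPM) and C1qa (69.0 and 223.8 CPM) were higher, Fcgr1 (115.9 and 25.6 CPM) and Cd14 (93.2 and 31.7 CPM) were lower, and Adgre1 had 151.7 and 145.4 CPM. Defining genes of T and NK cells (Cd3d, Cd3e, Cd3g, Ncr1) had no count in any library, and that list of 8 summed to 4.36 to 5.33 CPM with vehicle and 1.41 to 1.90 CPM with β-SITO. Nearly all of it was Lck, the 1 gene of the list that was tested, which fell (log2 fold change -1.81). The B cell list of 5 summed to 12.4 to 13.2 CPM with vehicle and at most 0.618 CPM with β-SITO, nearly all of it Pax5. Neutrophil markers, of which 2 of 8 were tested and both were DEGs lower (100%), summed to 16.8 to 18.2 and 4.27 to 6.22 CPM. Most of this was Csf3r, with S100a8 and S100a9 below 1 CPM on average. The dendritic cell list of 6 held 11.6 to 13.2 and 13.2 to 15.3 CPM, mostly Zbtb46. The mast cell list of 5 held 16.2 to 23.9 and 70.7 to 79.0 CPM, mostly Kit. Of this list 2 genes were tested and both were DEGs higher, Kit (14.0 and 51.9 CPM) and Mcpt4 (5.62 and 23.6 CPM). Tpsb2 and Ms4a2 were at 0. The part of any of these cell types in the Itgal, Itgb2 and Itgam values was not tested.

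Icam1 and Vcam1 fell most among the listed integrin ligands other than laminins. Of 33 listed, 28 were tested, with 7 DEGs higher and 5 lower (42.9%, against 22.8% over all genes tested). Icam1, the main ligand of LFA-1, held 1004, 997.1 and 961.9 CPM in V1 to V3 and 40.3, 34.3 and 36.3 CPM in T4 to T6. Vcam1, the ligand of the integrin of Itga4, held 4594, 4476 and 5019 CPM against 235.0, 228.8 and 204.4 CPM. Both ligands were thus lower by more than 20 times, with log2 fold changes of -4.74 ± 0.08 and -4.40 ± 0.08 (SE). Icam2, which encodes another ICAM molecule, was a DEG higher, with 12.0 ± 0.995 and 24.8 ± 1.94 CPM (SD, n = 3). Its log2 fold change was 1.04 (adjusted p = 1.19e-07). Among the receptors, Itgal fell 4.42-fold and Itga4 was 1.34-fold higher. C3, whose fragment iC3b is a ligand of Mac-1 (log2 fold change -3.03), and the matrix glycoprotein Tnc (-2.05), a ligand of the integrin of Itga9, also fell. Among the ligands that rose were Tgfb3 (2.90) and Tgfb2 (1.86), which encode TGF-β isoforms. Tgfb1, which encodes another isoform, was slightly lower, with 170.6 ± 4.98 and 153.5 ± 2.04 CPM (SD, n = 3). Its log2 fold change was -0.15 (adjusted p = 0.0227). The matricellular genes Ccn2 (2.57) and Ccn1 (1.92), whose products bind several integrins, also rose. Fn1, the ligand of the receptors of Itga5 and Itgav, had 9171 ± 689.9 and 10324 ± 360.9 CPM (SD, n = 3), for a difference of 0.17 on the log2 scale (adjusted p = 0.0377). The median log2 fold change of the list was 0.09.

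The adhesion complex inside the cell links integrin tails to actin. Of 32 listed genes, 31 were tested, with 5 DEGs higher and 1 lower (19.4%, near the 22.8% over all genes tested) and a median log2 fold change of 0.32. Vcl, which encodes vinculin, had 80.1, 62.8 and 77.0 CPM in V1 to V3 and 233.8, 239.6 and 231.4 CPM in T4 to T6, a log2 fold change of 1.68 ± 0.08 (SE, adjusted p = 3.26e-11). Parvg (3.06), the parvin of blood cells, Rasgrp2 (2.64), an activator of Rap1, and Lims2 (2.44), a partner of integrin-linked kinase, rose from low levels of 1.67, 0.669 and 2.503 CPM. Src, the tyrosine kinase recruited to integrins, fell from 104.0 ± 3.55 to 46.0 ± 2.02 CPM (SD, n = 3), for a difference of -1.18 on the log2 scale (adjusted p = 1.50e-10). The integrin activators Tln1 and Fermt2 had log2 fold changes of 0.04 (adjusted p = 0.596) and 0.06 (adjusted p = 0.417).

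Partners of laminin in the basement membrane and other laminin receptors were the third list, with all 24 genes tested, 4 DEGs higher and 2 lower (25.0%, near the 22.8% over all genes tested), and a median log2 fold change of 0.50. Col15a1, a basement membrane collagen of muscle and vessels, rose from 28.1 ± 4.70 to 186.6 ± 30.9 CPM (SD, n = 3), giving a log2 fold change of 2.73 (adjusted p = 2.55e-11). Nid2, which links laminin to the collagen network, had 95.4 ± 1.52 and 276.4 ± 11.5 CPM (SD, n = 3), giving a log2 fold change of 1.53, and Megf9 (1.38) and Col4a6 (1.04) also rose. Agrn, a heparan sulfate proteoglycan that binds laminin, fell from 431.3, 361.6 and 381.1 CPM to 103.3, 118.7 and 111.6 CPM (log2 fold change -1.82 ± 0.08, SE, adjusted p = 8.11e-12). Sntb1 (-1.16), a syntrophin of the dystrophin complex, fell as well. Dag1, which encodes dystroglycan, the main laminin receptor besides the integrins, had 530.3 ± 70.3 and 598.0 ± 22.5 CPM (SD, n = 3) and did not pass (log2 fold change 0.17, adjusted p = 0.0699). The most abundant members of the list, Sparc and the collagen genes Col4a1 and Col4a2, had log2 fold changes of 0.56, -0.07 and 0.00.

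**Figure D4:**
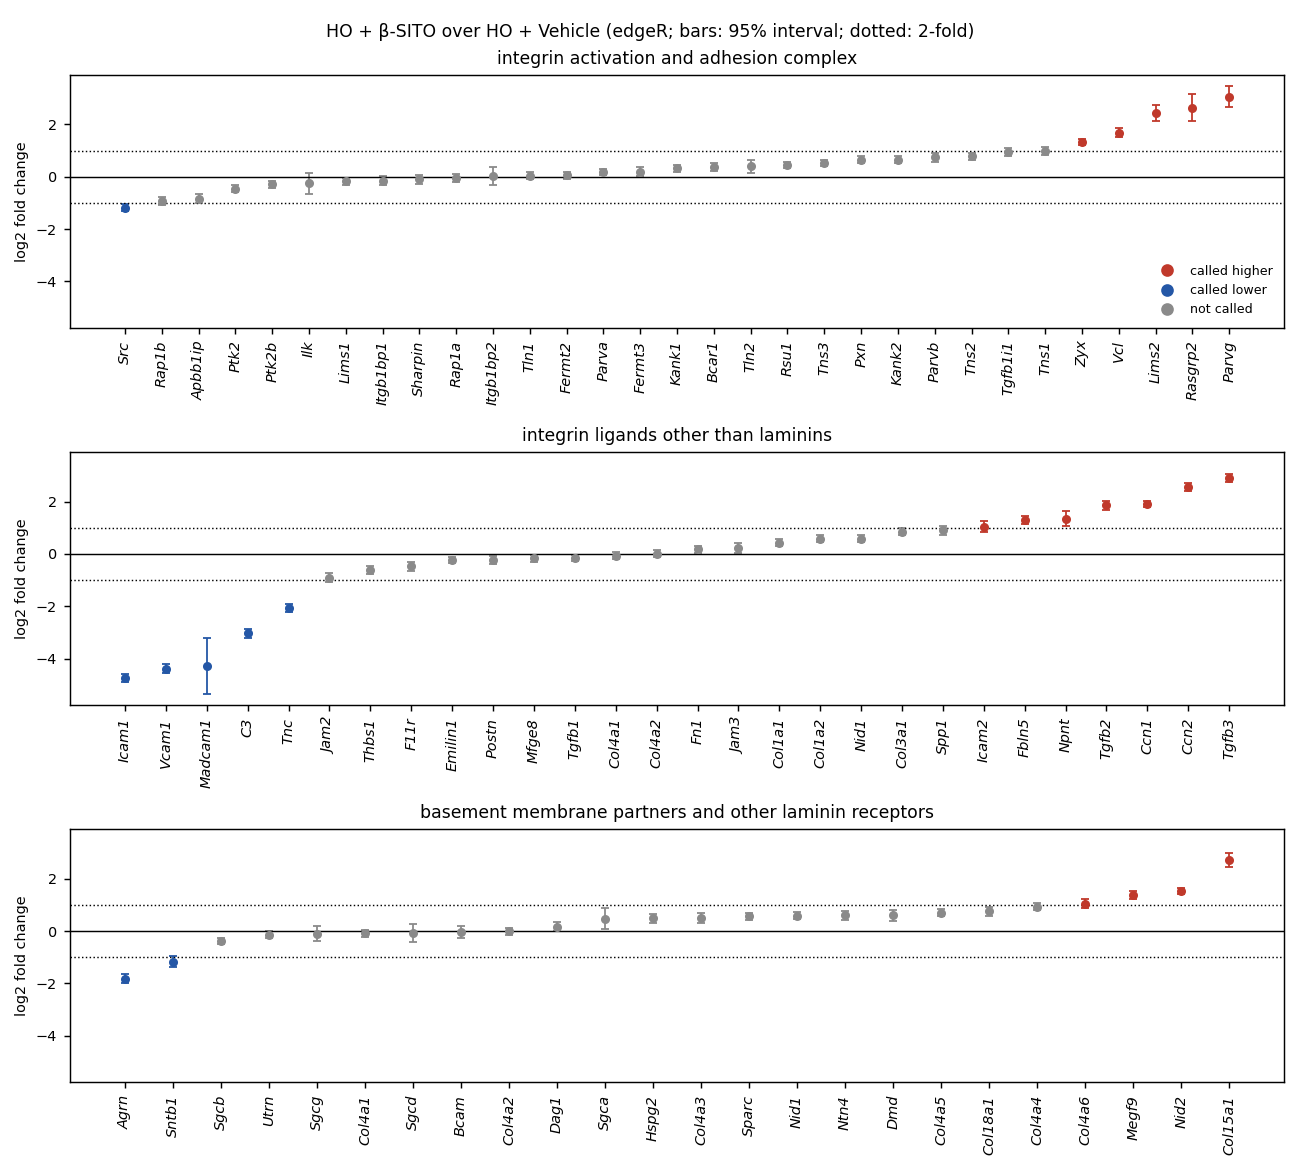
Log2 fold change (HO + β-SITO over HO + Vehicle) of the tested genes of the 3 lists around the members, ordered within each list, with 95% intervals and with DEGs in red (higher) and blue (lower). Icam1 and Vcam1 lie lowest, at -4.74 and -4.40, and Parvg lies highest, at 3.06.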

How the data were processed

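Libraries of 6 samples were analysed, 3 HO + Vehicle and 3 HO + β-SITO. Library kits are named differently in the labels and the study's methods. The authors deposited 1 table of raw counts per gene without normalization, and the submitters' processing notes name FastQC, HISAT2, featureCounts and the build GRCm39. Versions, counting options and the use of strand are not given in the sources used here. Differential expression was computed from the counts with edgeR 4.0.16 (R 4.3.3): filterByExpr, TMM factors and the quasi-likelihood test, with the group as the only term. The study names DESeq2, which was used here as an alternative (1.42.0), as was limma 3.58.1. SE is the absolute log2 fold change divided by the square root of F. Intervals are 95%, and the common biological coefficient of variation was 6.52%. TMM factors were 0.945 to 1.06. Replicate pairs differed by 1.96 (T5 and T6) to 9.06 (T4 and T6) times the counting error (chi-square per degree of freedom). No library was thus an identical copy of another, but this cannot show that the replicates were separate cultures. Levels per length used exon lengths of GENCODE vM21 (GRCm38), matched by gene ID. The genes and lists were chosen with earlier results of these data known. Every member could be named. Each list of related genes was to be named by up to 4 DEGs per direction with a mean count of 20 or more, and each marker list by up to 3 genes of highest level. Fn1, Icam2, Tgfb1, Tln1, Fermt2, Dag1, Sparc, Col4a1, Col4a2 and Epcam were picked after their values were seen. So were the fibroblast, macrophage, T cell, B cell, mast cell, neutrophil and epicardial genes beyond that rule. The test was checked on simulated counts in which few genes changed. In these data 66.8% of all genes tested passed the adjusted p, so that check does not bear on the normalization here. Alternatives were other normalizations, filters and tests, no fold threshold, each library left out, another gene length and another place for Itga4. Some items are not reported here, although the counts of genes include them.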

Additional observations from a re-analysis of the deposited data

How the results depend on the processing

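No paired analysis was possible because the groups share no replicate number. Dropping the fold threshold gave 4885 genes higher (33%) and 5007 lower (33.8%) over all genes tested. Of the integrin and laminin genes, 19 were then higher and 9 lower. By group, 4 leukocyte integrins were higher and 1 lower, 8 matrix receptors higher and 6 lower, and 7 laminins higher and 2 lower. Dropping it also gave 17 adhesion complex genes higher and 6 lower, 14 ligands higher and 12 lower, and 14 basement membrane genes higher. Scaling by library size alone, which shifted the median log2 fold change of all genes by 0.148, made 4 laminins DEGs higher, since Lamb1 and Lamb2 passed 2-fold. The ratio of summed levels (HO + β-SITO over HO + Vehicle) then went from 1.05 to 1.16 for leukocyte integrins, from 0.912 to 1.01 for matrix receptors and from 1.41 to 1.56 for laminins. Moving Itga4 to the matrix receptors gave 0.968 for leukocyte integrins. With glmTreat, 1 basement membrane gene was a DEG lower, and with each library left out 1 to 2 adhesion complex genes were lower (2 without T4). Signs turned for 3 genes that did not pass, with these log2 fold changes. Lamb3 had 0.024 with upper quartile and 0.029 with library size, and -0.20 to 0.012 with a library left out (positive without V1). Itgb1 had 0.071 and 0.076, and -0.10 to 0.0033 (positive without V3). Itga7 had 0.13 and 0.14, and -0.059 to 0.10 (positive without V1 or T4). The cause was not tested. Of the 14 DEGs among the members, 13 stayed DEGs under all 14 alternatives that kept the 2-fold threshold. Using the longest transcript of each gene as its length kept the direction of 46 of 48 shares, and changed it for Itga10 among collagen receptors and Itga5 among RGD receptors. The size of some shares moved by more than their SD, which does not cover the choice of length. Itga6 with β-SITO went from 8.88% to 13.55% and Lama4 with vehicle from 69.6% to 78.3%, while Lama2 with vehicle had 11.75% and 11.25%. The longest-transcript alternative and the ratios with a library left out were chosen after seeing the data. Low counts limit the precision for Lama1, Lama3, Itga10, Itga2b and Itgb6, and they left Itgad, Itgae and Itgb7 untested.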
